A study of Mus musculus with 14 samples.

Results

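The cytosolic ribosomal protein genes were taken from the count table as every symbol that begins with Rpl or Rps followed by a digit, plus Rpsa, Rplp0, Rplp1 and Rplp2, without the S6 kinases, Rps19bp1 and pseudogene symbols ending in -ps. The rule found 91 of 26683 symbols. They were divided here into 77 canonical members, which encode the standard proteins of the ribosome, 7 paralogs (Rpl10l, Rpl3l, Rpl39l, Rpl36al, Rpl7l1, Rpl22l1 and Rps27l) and 7 retrocopies (Rps12l1, Rps12l2, Rps3a2, Rps3a3, Rps4l, Rpl37rt and Rps27rt). Of these, 86 had enough counts to be tested: all 77 canonical members, 46 of the large and 31 of the small subunit, with 5 paralogs and 4 retrocopies. The other 5 had almost no counts over all 14 libraries together: 1 for Rpl10l, 2 for Rpl3l, 3 for Rps12l1, 13 for Rps12l2 and 56 for Rps3a2.

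RNA was sequenced from splenic CD4 T cells of 8-month-old female mice, 4 of C57BL/6J (B6) and 3 of the triple congenic B6.NZM-Sle1NZM2410/AegSle2NZM2410/AegSle3NZM2410/Aeg/LmoJ, called TC here. TC mice are a lupus-prone congenic strain that carries the intervals Sle1, Sle2 and Sle3 of NZM2410 on the B6 background, so a strain difference here is that of the intervals together with anything else in which the colonies differ. No mouse was treated. Each mouse gave a library of follicular helper cells (Tfh, sorted as CD4+CD44+CD162lo/-PD-1+), which help B cells in germinal centres, and a library of naive cells (Tn, CD4+CD44-), so the 14 libraries form 4 groups: 4 B6 Tn, 4 B6 Tfh, 3 TC Tn and 3 TC Tfh. Nothing says that the gates left out regulatory T cells.

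A ribosome is built from a small subunit, which reads the mRNA, and a large subunit, which joins amino acids, and each holds 1 copy of nearly every ribosomal protein beside its ribosomal RNA. Most ribosomal protein mRNAs begin with a run of pyrimidines, the 5′ terminal oligopyrimidine (TOP) motif, through which mTOR and the RNA-binding protein LARP1 control their translation and stability together. Naive T cells are small and divide rarely, and they store mRNAs of the translation machinery that are used when the cell is activated.

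Library totals ran from 15162309 to 20191558 counts, and 13427 genes were tested. The 10 listed Tfh markers were all called higher in Tfh and the 10 listed naive markers all lower, in each strain. Markers of other cell types were also counted. The summed level of 10 B cell markers was 109.6 to 120.1 CPM (counts per 1e6 counts of the library) in B6 Tfh and 75.7 to 104 in TC Tfh, against 1.34 to 2.58 in B6 Tn and 1.23 to 2.24 in TC Tn. Among 10 tested genes of a stress and RNA quality list, 7 were higher in TC than in B6 Tfh and 8 in Tn, and none was lower. Over all genes tested, 24.2% were called higher in TC in Tfh and 25.9% in Tn. The summed level of the 11 genes listed was 937 to 1054 CPM in B6 Tn and 1523 to 2275 in B6 Tfh, and 2521 to 4265 in TC Tn and 3460.4 to 4446 in TC Tfh. Regulatory T cell markers (6 genes) summed to 2119.7 to 2611 CPM in B6 Tfh and 2689 to 3131 in TC Tfh, against 109.8 to 143 in B6 Tn and 100.4 to 137 in TC Tn. The part of these markers in the results that follow was not tested.

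Ribosomal protein genes took less of the RNA in Tfh than in Tn, and less in TC than in B6. In B6 Tn they held 8.68, 9.02, 9.52 and 8.09% of all gene counts in mice 1 to 4, and in TC Tn 6.76, 6.20 and 6.22% in mice 1, 2 and 4. In B6 Tfh the shares were 3.59, 4.74, 3.96 and 4.07%, and in TC Tfh 2.98, 2.91 and 2.90%. The group means were 8.83 ± 0.599% (SD, n = 4), 6.39 ± 0.317% (n = 3), 4.09 ± 0.479% (n = 4) and 2.93 ± 0.0423% (n = 3), and no library of a group reached the range of the next. These are shares of counts, which also fall when a cell holds more of other RNA, and amounts per cell were not measured. In RNA of sorted populations, fewer cells with these transcripts and less of them per cell cannot be told apart either. Both subunits contributed alike. Canonical large subunit members took 4.91 ± 0.329% in B6 Tn and 2.27 ± 0.263% in B6 Tfh, and canonical small subunit members 3.88 ± 0.269% and 1.79 ± 0.214%. The 217 pseudogene symbols left out held between 0.0113 and 0.0361% of counts in any library.

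**Figure D1:**
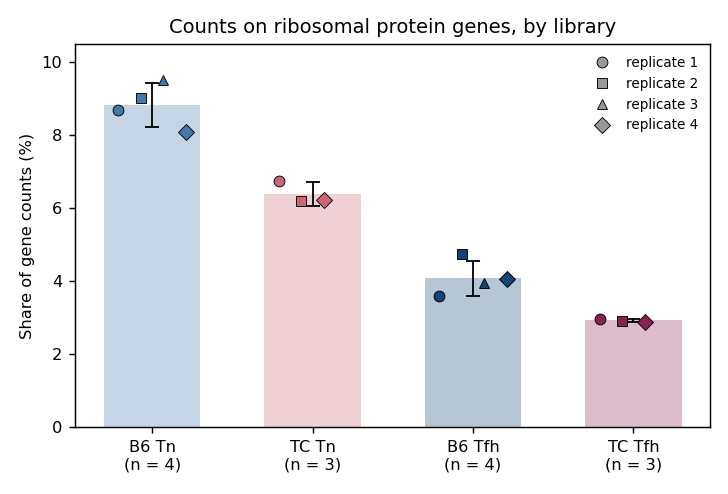
Share of gene counts (%) on the 91 ribosomal protein genes in each of 14 libraries. Bars are group means, error bars SD, and symbols mark the replicate number of the mouse within its strain. The groups fall from 8.83% in B6 Tn to 2.93% in TC Tfh and their libraries do not overlap.

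Tfh were compared with Tn within each strain. In B6, 81 of the 86 members were called lower in Tfh and none higher, where 33.3% of all genes tested were called lower, 36.9% higher and 70.3% in either direction (edgeR's quasi-likelihood test, Benjamini-Hochberg adjusted p below 0.05). At an unadjusted p below 0.05, 0 members were higher. DESeq2, which tested 88 members, also called 81 lower and 0 higher, beside 56.1% of 17347 genes in either direction. The median log2 fold change of the members was -1.19, or 2.28-fold lower, against 0.02 over all genes. In TC, 82 members were called lower and none higher (background 32.4% lower, 33.7% higher and 66.1% in either direction), with a median of -1.17 against -0.01 over all genes. At an unadjusted p below 0.05 a single member was higher there, the retrocopy Rps4l. DESeq2 called 81 of 88 members lower and 0 higher in TC, beside 51.6% of 17347 genes in either direction. In 80 members every B6 Tfh library lay below every B6 Tn library (21.6% of all genes), and in TC this held for 81 (28.2%). The members that were not called in either strain were Rps27l, Rpl7l1, Rpl39l and Rps4l, and in B6 also Rpl24. Scaling by library size alone moved the median of all genes to 0.15 in B6 and 0.10 in TC and the members' medians to -1.05 and -1.06. The calls over all genes then split into 6132 higher and 3223 lower in B6 (4959 and 4476 with TMM) and 5366 and 3373 in TC (4531 and 4348 with TMM), and 2 members, Rps27l and Rps4l, were called higher in TC Tfh.

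TC were compared with B6 within each cell type. In Tfh, 81 members were called lower in TC and 1 higher, where 25.5% of all genes were called lower, 24.2% higher and 49.7% in either direction, with a median of -0.47 (1.39-fold lower) against -0.02 over all genes. In Tn, 82 were called lower and 1 higher (background 26.1% lower, 25.9% higher and 52.0% in either direction), with a median of -0.48 (1.40-fold lower) against -0.01. All TC libraries lay below all B6 libraries in 80 members in Tfh (25.2% of all genes) and 82 in Tn (25.4%). The median strain difference was smaller than that between cell types and about as many members were called. Within Tfh, Rpl22l1, Rpl24, Rpl37rt and Rpl39l were not called, and within Tn, Rpl39l, Rps3a3 and Rps4l were not. The 2 comparisons between strains use separate libraries of the same 7 mice.

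**Figure D2:**
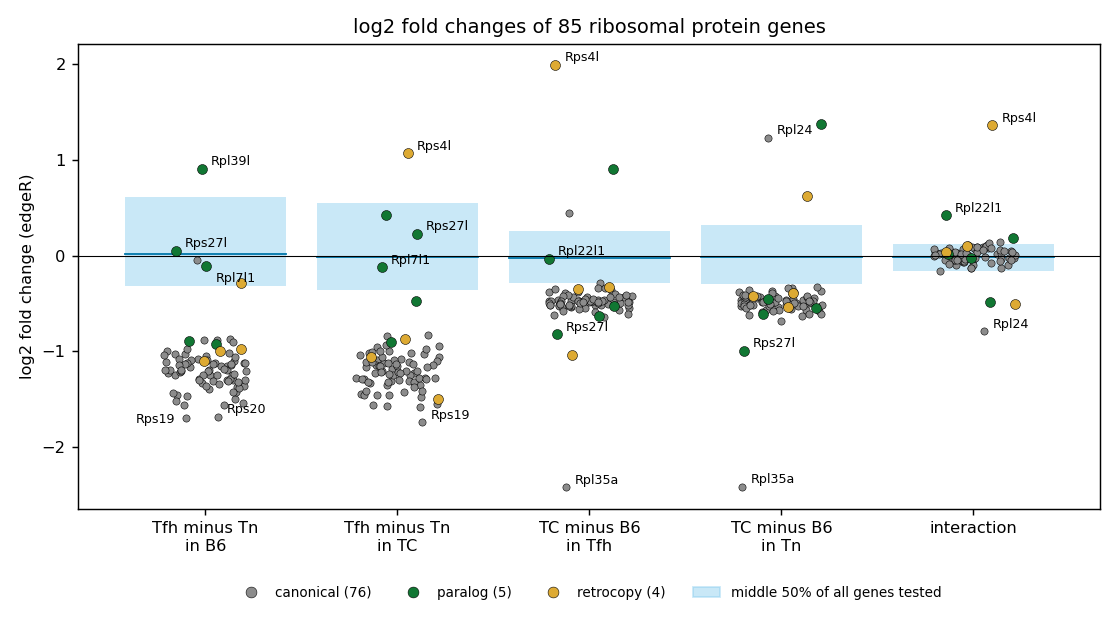
log2 fold changes (edgeR) of 85 members tested in the 5 comparisons, coloured by class. Blue boxes span the middle 50% of all 13427 genes tested and their lines the median of all genes. Most canonical members form a band around -1.2 between cell types and around -0.5 between strains. Rpl35a lies below it between strains. The low-count gene Rpl24 lies above it between strains and between cell types in B6.

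The 4 groups kept 1 order. Group means ran from B6 Tn through TC Tn and B6 Tfh to TC Tfh in 79 of 86 members (91.9%), against 9.63% of all genes tested. In 73 members, all of them canonical, the libraries followed that order with no overlap between neighbouring groups, against 2.12% of all genes. Among canonical members 30 of 31 of the small subunit and 43 of 46 of the large subunit did so.

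The interaction asks whether the Tfh to Tn ratio differed between strains, a positive value being a higher ratio in TC. Its median over the members was 0.01, and 1 member was called (0.953% of all genes were called higher, 1.37% lower and 2.32% in either direction). At an unadjusted p below 0.05 there were 2 members, beside 1956 of the 13427 genes tested. With the mouse as a replicate block, which pairs the Tfh and Tn library of each spleen, 2 members of 86 were called, Rpl22l1 among them, beside 5.48% of all genes in the same fit. TMM computed without the ribosomal protein genes also called 2 (2.38% of all genes), and split the calls over all genes into 170 higher and 150 lower, against 128 and 184.

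Short stretches around the annotated starts are printed as examples, from canonical members that fell together and from members that departed from them. Pyrimidine runs near the start were found in members of both kinds. They come from RefSeq windows of build GRCm38.p6, run from 40 bases before to 20 from the start on, 5′ to 3′ on the gene's strand, and capitals mark any run of 8 or more C or T. The first 4 are canonical members that were called lower in Tfh and in TC, although the TC call of Rpl28 within Tfh (-0.29 ± 0.09, adjusted p = 0.00988, edgeR) was lost with an offset for length and GC content (-0.11), and then follow Rpl35a and the paralogs Rps27l, Rpl22l1 and Rpl7l1.
Rpl28, chr7:4792925-4792984, plus strand: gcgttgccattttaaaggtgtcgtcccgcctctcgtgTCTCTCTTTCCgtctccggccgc
Rpl35, chr2:39005112-39005171, minus strand: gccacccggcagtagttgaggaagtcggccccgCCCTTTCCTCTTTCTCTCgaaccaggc
Rps15a, chr7:118116128-118116187, minus strand: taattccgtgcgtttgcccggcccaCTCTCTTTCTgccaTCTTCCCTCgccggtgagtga
Rpl7a, chr2:26910767-26910826, plus strand: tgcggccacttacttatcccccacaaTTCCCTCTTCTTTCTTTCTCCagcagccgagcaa
Rpl35a, chr16:33056413-33056472, plus strand: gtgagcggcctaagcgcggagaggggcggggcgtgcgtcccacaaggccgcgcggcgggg
Rps27l, chr9:66946046-66946105, plus strand: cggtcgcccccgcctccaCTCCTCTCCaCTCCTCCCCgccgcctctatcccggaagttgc
Rpl22l1, chr3:28805468-28805527, plus strand: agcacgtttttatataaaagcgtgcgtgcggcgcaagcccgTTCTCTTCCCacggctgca
Rpl7l1, chr17:46782637-46782696, minus strand: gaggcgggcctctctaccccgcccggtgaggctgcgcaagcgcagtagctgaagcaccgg
A window was found for 66 of the 91 members. Within 50 bases either side of the start, 53 of the 66 (80.3%) held a run of 8 or more C or T on the gene's strand, against 39.3% of 27025 genes with a window. Of the 57 canonical members with a window 48 did (84.2%). Rpl35a was one of them, with its run outside the bases printed above. Rps27l and Rpl22l1 held a run there too, and Rpl7l1 did not. The hexamer CGGAAG, the core of sites bound by ETS factors, was found on either strand of the whole 300 bases in 43 of 66 members (65.2%) and in 18.8% of all genes. A gene with several windows was counted if any held the letters, and these matches are descriptions of sequence only.

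The stalk of the large subunit, which recruits elongation factors, is formed by Rplp0, Rplp1 and Rplp2. Rplp0 stood at 1145, 1451, 1208 and 1289.9 CPM in B6 Tfh and 3397, 3339, 3481 and 3119 in B6 Tn, and at 846, 809 and 811 in TC Tfh and 2253, 2033 and 2108 in TC Tn. The lowest Tn library of either strain was above the highest Tfh library of both. Its log2 fold change between Tfh and Tn was -1.52 ± 0.07 (SE, adjusted p = 2.95e-12, edgeR) in B6 and -1.48 ± 0.09 (adjusted p = 4.74e-11) in TC. TC was lower than B6 by -0.64 ± 0.08 in Tfh and -0.68 ± 0.08 in Tn on that scale. Rplp1 fell by 1.25 and 1.41 on the log2 scale in Tfh of B6 and TC, and Rplp2 by 1.15 and 1.28. Between strains Rplp1 fell by 0.59 in Tfh and 0.42 in Tn, and Rplp2 by 0.47 and 0.34.

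The 2 largest falls from Tn to Tfh in B6 among canonical members were in proteins of the small subunit. Rps19, which is mutated in Diamond-Blackfan anaemia, stood at 270.5, 367, 305 and 324 CPM in B6 Tfh and 939, 931, 1027 and 831 in B6 Tn. In TC it stood at 221, 212 and 206 CPM in Tfh and 713, 639.8 and 619.6 in Tn. The groups did not overlap, and the log2 fold change was -1.69 ± 0.09 in B6 and -1.74 ± 0.10 in TC (SE, adjusted p = 2.49e-11 and 1.91e-10, edgeR). Rps20, a protein of the head of the small subunit, fell by 1.68 in B6 and 1.58 in TC. Rps24, another small subunit protein linked to Diamond-Blackfan anaemia, fell by 1.46 and 1.55, and Rps7 by 1.56 and 1.45. Rps6, the substrate of S6 kinase, fell by 1.34 and 1.21, and Rps14 by 1.14 and 1.15. Between strains these small subunit genes were all called lower in TC, Rps19 by -0.58 ± 0.10 in Tfh and -0.54 ± 0.10 in Tn.

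In B6 the smallest falls that were called among named canonical members were in Rpl41, Rpl29, Rpl22 and Rpsa. Rpsa, which is a small subunit protein and also a laminin-binding receptor, stood at 1184, 1606, 1312 and 1403 CPM in B6 Tfh and 2255, 2416, 2546 and 2166 in B6 Tn. TC Tfh had 982, 969 and 977 CPM and TC Tn 1822, 1701 and 1679. The Tfh libraries were again all below the Tn libraries, by -0.90 ± 0.08 in B6 and -0.94 ± 0.10 in TC on the log2 scale (SE, adjusted p = 2.17e-08 and 1.22e-07, edgeR). Rpl41, which encodes the shortest ribosomal protein, fell by 0.88 and 0.93, and Rpl29 by 0.88 and 1.01. Rpl5 and Rpl11, which bind MDM2 with the 5S ribosomal RNA when ribosome assembly fails, differed in size of change: Rpl5 fell by 1.50 and 1.45 and Rpl11 by 1.03 and 1.02. Rpl38 fell by 1.00 and 0.97, Rpl10 by 1.05 and 1.04, and Rpl3, which lies close to the peptidyl transferase centre, by 1.20 and 1.06. Rpl13a, which also has a role outside the ribosome in silencing inflammatory mRNAs, fell by 1.29 and 1.22, and was lower in TC by -0.47 ± 0.10 in Tfh and -0.54 ± 0.10 in Tn.

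Changes within the family were measured with each gene set against the summed counts of all members in its library, so that the shift common to them is removed. On that scale 35 of 86 members were still called between Tfh and Tn in B6, 23 higher and 12 lower, and 34 in TC, 22 higher and 12 lower. Between strains 8 were called in Tfh and 6 in Tn. By construction nearly all other genes are higher in Tfh on this scale (11978 higher and 473 lower in B6, 11775 and 446 in TC), and in TC (8265 and 243 in Tfh, 8018 and 271 in Tn), so the values describe the make-up of the family only. Canonical members called lower in both strains were Rpl12, Rpl31, Rpl5, Rplp0, Rps16, Rps19, Rps20, Rps24 and Rps7, 9 of the 15 called lower in either. Those called higher in both were Rpl10, Rpl11, Rpl15, Rpl22, Rpl27, Rpl29, Rpl34, Rpl37, Rpl38, Rpl41, Rps2 and Rpsa, 12 of the 20 called higher in either. Rps19 made up 1.05 ± 0.0296% of the counts of the family in B6 Tn and 0.773 ± 0.017% in B6 Tfh (SD, n = 4), and 1.03 ± 0.0299% and 0.726 ± 0.0155% in TC (n = 3). Its relative log2 fold change was -0.45 ± 0.07 in B6 and -0.50 ± 0.08 in TC (SE, adjusted p = 5.8e-06 and 9.81e-06, edgeR). Rpl22 moved the other way, from 0.566 ± 0.0127% in B6 Tn to 0.736 ± 0.0175% in B6 Tfh and from 0.582 ± 0.00919% to 0.767 ± 0.0188% in TC, a relative log2 fold change of 0.38 ± 0.07 and 0.40 ± 0.08.

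**Figure D3:**
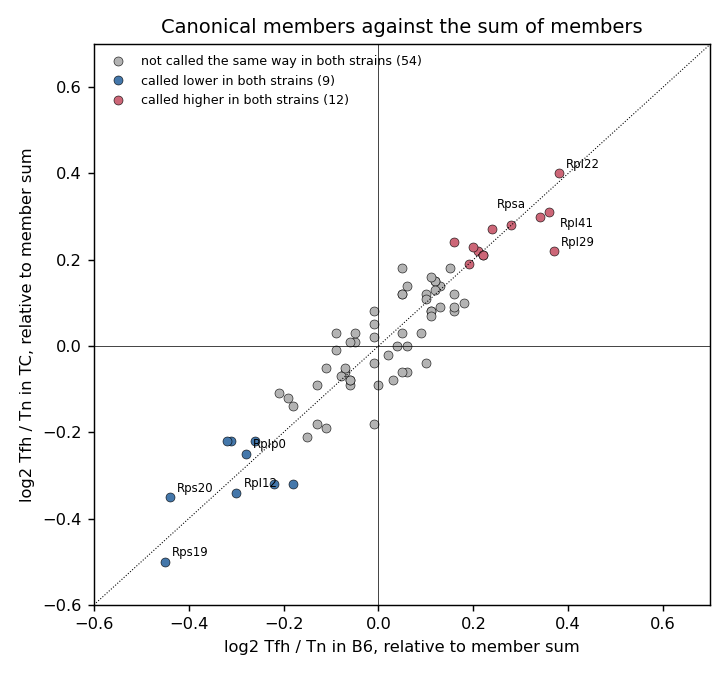
Relative log2 Tfh to Tn ratio of 75 canonical members in B6 (x axis) and TC (y axis), each gene set against the summed counts of the members. The low-count gene Rpl24 is left out, the dotted line marks equal values, and colours mark members called lower (9) or higher (12) in both strains. Most points lie along the line.

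The size of a gene's fall between cell types was similar in both strains. Across the 77 canonical genes the log2 fold changes of Tfh against Tn in B6 and in TC, which come from different mice, had a Pearson r of 0.808 and a Spearman rho of 0.885. Without Rpl35a and Rpl24 (75 genes), which were set aside after their values were seen, these were 0.863 and 0.880. The strain differences in Tfh and in Tn, from separate libraries of the same mice, had an r of 0.918 and a rho of 0.497, and of 0.598 and 0.456 without those genes. Over all 13427 genes tested r was 0.947 and rho 0.916 between the cell type differences, and 0.687 and 0.724 between the strain differences. Genes are not independent replicates, and members that share a library share its depth and scaling.

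Rpl35a, a protein of the large subunit linked to Diamond-Blackfan anaemia (chromosome 16, 33056453 to 33060189, plus strand, GENCODE M21 on GRCm38), had the largest strain difference of the family. It stood at 412, 441, 456 and 385 CPM in B6 Tn and 87.5, 78.7 and 78.8 in TC Tn. In Tfh it stood at 165, 224, 178 and 186 CPM in B6 and 38.9, 36.4 and 30.9 in TC, so that even B6 Tfh lay above TC Tn. TC was 5.35-fold lower in Tfh (log2 -2.42 ± 0.12, SE, adjusted p = 1.14e-09, edgeR) and 5.31-fold lower in Tn (-2.41 ± 0.11, adjusted p = 5.14e-10). Its Tfh to Tn ratio was that of the family, -1.30 ± 0.10 in B6 and -1.32 ± 0.12 in TC. Of its 8 nearest tested coding genes, 4 on either side, 4 were called higher and 0 lower in TC in Tfh, and 1 higher and 1 lower in Tn, and their log2 fold changes ran from -0.08 to 2.76 in Tfh and from -0.37 to 0.54 in Tn. The 6 pseudogene symbols of Rpl35a held 138 counts in B6 Tn, 74 in B6 Tfh, 74 in TC Tn and 25 in TC Tfh, against 31914, 14160, 4354 and 1752 for the gene. Whether TC carries a sequence difference in the gene that lowers alignment to the B6 reference was not tested.

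**Figure D4:**
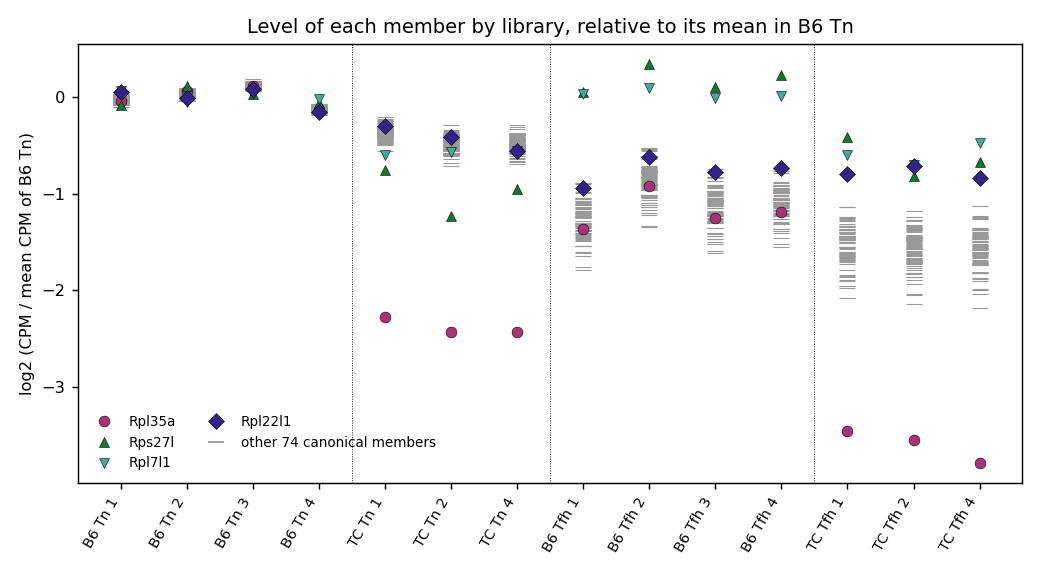
log2 of the CPM of each member in each library over its mean in the 4 B6 Tn libraries, with libraries grouped by strain and cell type. Grey dashes are 74 canonical members, which step down from B6 Tn to TC Tn, B6 Tfh and TC Tfh. Rpl35a lies below them in TC libraries, and Rps27l and Rpl7l1 lie above them in Tfh.

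Median strain differences of the canonical members were about as large on chromosomes with the Sle intervals as elsewhere. Whole chromosomes were compared, and whether a member lies inside an interval was not examined. Those on chromosome 1 (3 genes), chromosome 4 (5) and chromosome 7 (14) had medians of -0.48, -0.48 and -0.47 in Tfh, and the 55 on other chromosomes -0.48. In Tn the medians were -0.53, -0.53, -0.48 and -0.48.

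The paralogs encode proteins that can take the place of a canonical member or that have roles outside the ribosome. Rps27l, a p53 target in the place of Rps27, stood at 18.8, 23.0, 19.5 and 21.2 CPM in B6 Tfh and 17.2, 19.7, 18.5 and 17.4 in B6 Tn. In TC it stood at 13.6, 10.3 and 11.4 CPM in Tfh and 10.8, 7.74 and 9.39 in Tn. The cell types overlapped in each strain and the strains did not overlap in either cell type. Its log2 fold change between Tfh and Tn was 0.05 ± 0.10 in B6 (SE, adjusted p = 0.675, edgeR) and 0.23 ± 0.13 in TC (adjusted p = 0.147). With the mouse as a fixed replicate block the TC value was called (0.23 ± 0.09, adjusted p = 0.0383), as it was without TC Tfh mouse 2 (0.34) or TC Tn mouse 1 (0.35). An offset for transcript length and GC content gave 0.46 ± 0.09 in B6 and 0.66 ± 0.11 in TC, both called (adjusted p = 0.000143 and 5.74e-05). TC was lower than B6 by -0.82 ± 0.12 in Tfh and -0.99 ± 0.12 in Tn (adjusted p = 3.34e-05 and 4.01e-06). Per 100 counts of Rps27 there were 0.874 ± 0.0727 of Rps27l in B6 Tn and 1.98 ± 0.0898 in B6 Tfh (SD, n = 4), and 0.568 ± 0.0723 and 1.49 ± 0.17 in TC (n = 3).

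Rpl7l1, which acts in the assembly of the large subunit, also had overlapping libraries of the cell types in each strain. It stood at 91.5, 96.0, 89.0 and 90.5 CPM in B6 Tfh and 93.5, 86.6, 91.4 and 88.4 in B6 Tn, and at 59.3, 55.1 and 64.5 in TC Tfh and 59.1, 60.5 and 60.9 in TC Tn. The difference was -0.11 ± 0.05 in B6 (SE, adjusted p = 0.0514, edgeR) and -0.12 ± 0.06 in TC (adjusted p = 0.0638). A fixed replicate block called it in B6 (-0.11 ± 0.05, adjusted p = 0.0487), and limma voom with a random block in both strains (adjusted p = 0.0288 and 0.0436). The length and GC offset also called it in both (-0.12 and -0.14, adjusted p = 0.0163 and 0.0193, edgeR). TMM without ribosomal protein genes called it in B6 (-0.11), and the fit with no filter on low counts in TC (-0.16, adjusted p = 0.0365, edgeR). DESeq2 called it in neither strain (adjusted p = 0.0669 and 0.144). With library size as the only scaling the B6 value was 0.03. Between strains it fell by 0.63 in Tfh and 0.61 in Tn, and no library overlapped. Rpl7l1 thus had a strain difference near that of the family beside a much smaller difference between cell types.

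Rpl22l1, the paralog of Rpl22, showed another pattern. Its levels were 55.6, 69.6, 62.2 and 64.3 CPM in B6 Tfh and 61.4, 65.2 and 59.6 in TC Tfh, which overlapped. In Tn they were 111, 106, 113 and 96.2 CPM in B6 and 86.5, 80.3 and 72.3 in TC, which did not. The strain difference was -0.03 ± 0.08 in Tfh (SE, adjusted p = 0.789, edgeR) and -0.45 ± 0.08 in Tn (adjusted p = 0.000197). Tfh was lower than Tn by -0.89 ± 0.08 in B6 and -0.47 ± 0.09 in TC, and the interaction of 0.42 ± 0.12 was not called (adjusted p = 0.0695). With the mouse as a fixed replicate block it was 0.43 ± 0.10 and called (adjusted p = 0.0307), as in DESeq2 (0.43 ± 0.13, adjusted p = 0.0219). An offset for length and GC content took the Tfh to Tn value to -0.42 ± 0.06 in B6 and 0.03 ± 0.07 in TC. Rpl22 itself moved alike in both strains, by -0.87 ± 0.07 in B6 and -0.84 ± 0.09 in TC. Per 100 counts of Rpl22 there were 27.2, 29.7 and 26.0 of Rpl22l1 in the TC Tfh libraries, and 20.3 to 23.1 in the other 11 libraries, which all lay below them.

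**Figure D5:**
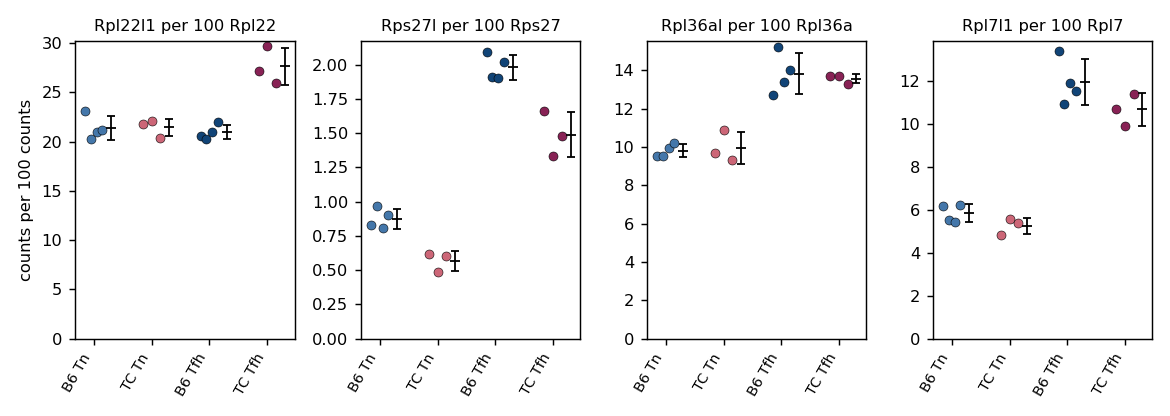
Counts of 4 paralogs per 100 counts of their canonical partner in each library, by group, with mean ± SD beside the points. Rps27l, Rpl36al and Rpl7l1 are higher against their partners in Tfh than in Tn of both strains. Rpl22l1 is higher in TC Tfh.

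Rpl36al, a retained copy of Rpl36a, was lower in Tfh and in TC, as most members were. It stood at -0.92 ± 0.11 in B6 and -0.90 ± 0.13 in TC between cell types and -0.53 ± 0.13 and -0.55 ± 0.12 between strains in Tfh and Tn. Against the sum of members it was called higher in Tfh, by 0.31 in B6 and 0.33 in TC (adjusted p = 0.00123 and 0.00374, edgeR). Per 100 counts of Rpl36a it had 9.78 ± 0.323 in B6 Tn and 13.8 ± 1.05 in B6 Tfh, and 9.97 ± 0.842 and 13.6 ± 0.268 in TC. Rpl39l, known for its expression in testis, had 0.198 to 3.13 CPM in any library and was not called in the 5 comparisons. Its value for TC against B6 in Tn, 1.38 ± 0.57 (adjusted p = 0.0572, edgeR), was called in DESeq2 (1.36), with only the compared groups in the fit (1.40), with the length and GC offset (1.51), and without B6 Tfh mouse 2 (1.39) or TC Tfh mouse 4 (1.37). Without B6 Tfh mouse 2 its Tfh to Tn value in B6, 0.91 ± 0.55, was also called (1.29). Among the retrocopies, Rps27rt and Rpl37rt moved with their parent genes between cell types, and reads of such copies may be shared with the parents. Rps27rt had 0.969 to 1.04 counts per 100 of Rps27 in the 4 group means, and Rpl37rt 5.29 to 6.10 per 100 of Rpl37, the highest in TC Tfh. Rpl37rt was not called between strains in Tfh. RLE size factors (-0.32) and the fit with no filter on low counts (-0.36) did call it lower in TC. So did 3 of the 14 fits that leave out 1 library, where its values ran from -0.38 to -0.16. Rps27rt was called lower in TC Tfh (-0.35 ± 0.13, adjusted p = 0.0294, edgeR). That call was lost with voom and a random replicate block (-0.34), with only the compared groups in the fit (-0.34), and in 4 of 14 fits that leave out 1 library, B6 Tfh mouse 2 (-0.23) or 4 (-0.31) or TC Tfh mouse 1 (-0.25) or 2 (-0.34). Rps4l was higher in TC Tfh than in B6 Tfh by 1.99 ± 0.48 (SE, adjusted p = 0.00267, edgeR), at 0.945, 1.78 and 2.45 CPM against 0.431, 0.104, 0.861 and 0.322. Between cell types in TC it differed by 1.07 ± 0.49 (adjusted p = 0.063, edgeR). That difference was called with a fixed replicate block (1.07), voom and a random block (1.09) and library size as the only scaling (1.18). The fit of only the compared groups (1.10), the length and GC offset (1.23) and 4 of 14 fits that leave out 1 library also called it. DESeq2, RLE size factors and the fit with no filter on low counts called 0 members higher there.

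Rpl24 stood apart from the other canonical members by its level, and was singled out after its values were seen. It had 8 to 33 counts in any library, or 0.437 to 1.84 CPM, where the other canonical members averaged 137 CPM (Rpl27) to 2393 CPM (Rpl4). It was higher in TC than in B6 Tn by 1.23 ± 0.30 (SE, adjusted p = 0.00212, edgeR), at 1.18, 1.84 and 1.80 CPM against 0.743, 0.437, 0.933 and 0.534. Whether reads of this gene were counted under another symbol was not tested. Per kilobase of transcript the most abundant members were Rps27 at 4101 CPM per kb, Rplp1 at 3792 and Rps15 at 2235. These levels per length depend on the transcript taken for each gene, of 345, 499 and 500 bases.

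In 3 of the 4 groups some libraries deviated in nearly the whole family at once. In B6 Tfh, 76 of the 77 canonical members were above their group mean in mouse 2, 1 in mouse 1, 17 in mouse 3 and 51 in mouse 4, and the median deviations in mice 2 and 1 were 0.22 and -0.21 on the log2 scale. In B6 Tn all 77 were above it in mouse 3 and none in mouse 4, with medians of 0.13 and -0.13. In TC Tn 76 were above it in mouse 1, 10 in mouse 2 and 2 in mouse 4. The median SD of log2 CPM within a group was 0.176 over canonical members and 0.125 over all genes in B6 Tfh, and 0.049 and 0.106 in TC Tfh. TC Tfh was less one-sided, with 68 members above the mean in mouse 1, 27 in mouse 2 and 16 in mouse 4.

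Other genes of the pathway were described from lists. Over all genes tested, 33.3% were called lower in Tfh and 36.9% higher in B6, and 32.4% and 33.7% in TC. Between strains 25.5% were called lower in TC and 24.2% higher in Tfh, and 26.1% and 25.9% in Tn. Of 42 translation factors and related TOP mRNAs, 41 were called lower in Tfh and 1 higher in B6, with a median of -0.40, and 35 lower and 1 higher in TC. The gene that was higher was Eif4e, the cap-binding factor, in both. Between strains 34 were lower in TC and 3 higher in Tfh, and 36 and 2 in Tn. Eef2, the factor that moves the ribosome along the mRNA, stood at 5946 ± 287 CPM in B6 Tn and 3207 ± 135 in B6 Tfh (SD, n = 4), and at 4295 ± 226 in TC Tn and 2480.4 ± 74.6 in TC Tfh (n = 3). Eef1b2, an exchange factor of elongation, fell by 1.31 in B6 and 1.27 in TC Tfh, and Tpt1, a classic TOP mRNA, by 1.24 and 1.30. Eif4a2, a paralog of the helicase of initiation, was lower in Tfh (-0.30 ± 0.07 and -0.50 ± 0.08) and higher in TC, by 0.58 ± 0.08 in Tfh and 0.78 ± 0.08 in Tn.

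Genes of ribosome assembly moved with the cell type more than with the strain. The shares over all genes are those given with the translation factors. Of 69 tested, 62 were lower in Tfh and none higher in B6 (median -0.53), and 60 lower and 1 higher in TC. Between strains 26 were lower in TC and 7 higher in Tfh, and 34 and 10 in Tn, with medians of -0.10 and -0.15. Bysl, an assembly factor of the small subunit, fell by 1.43 in B6 and 1.41 in TC Tfh, and Dkc1, the pseudouridine synthase of ribosomal RNA, by 1.05 and 0.84. Nhp2, a partner of Dkc1, was lower in TC by -0.63 ± 0.10 in Tfh and -0.79 ± 0.09 in Tn. Of 15 genes of RNA polymerase I and its factors, which make ribosomal RNA, 10 were lower and 2 higher in B6 Tfh, and 11 and 1 in TC Tfh. Between strains 7 were lower and 3 higher in TC in each cell type. Polr1a, its largest subunit, fell by 0.97 in B6 and 0.81 in TC Tfh.

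Called regulators of TOP mRNAs and growth went in both directions, as called genes did over all genes tested. Over all genes, 33.3% were lower and 36.9% higher in B6 Tfh, and 32.4% and 33.7% in TC Tfh. Between strains 25.5% were lower and 24.2% higher in TC in Tfh, and 26.1% and 25.9% in Tn. Of 17 tested, 9 were lower and 3 higher in B6 Tfh, and 7 and 4 in TC Tfh, and between strains 2 were lower and 4 higher in Tfh and 2 and 7 in Tn. Larp1 fell by 0.93 in B6 Tfh and 0.74 in TC Tfh, whereas its relative Larp1b was higher by 0.99 ± 0.08 and 1.13 ± 0.10. Myc, which drives transcription of ribosome genes, stood at 88.6 ± 6.85 CPM in B6 Tn and 26.4 ± 1.96 in B6 Tfh, and at 117 ± 17.4 and 29.0 ± 3.92 in TC. It was higher in TC than B6 Tn by 0.37 ± 0.10 (SE, adjusted p = 0.00606, edgeR), while the members were lower there. Tia1 and Tial1, which bind TOP mRNAs in stressed cells, were higher in TC, Tial1 by 0.53 ± 0.05 in Tfh and 0.58 ± 0.06 in Tn. Of 11 genes of ribosome quality control and the p53 response, 4 were higher and 4 lower in B6 Tfh, and 3 and 3 in TC Tfh. Between strains 6 were higher in each cell type, and 3 lower in Tfh and 2 in Tn. The counts of so short a list are given as a description only.

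Other measures also moved with the strain. The noncoding transcript Gm26917 stood at 86.1 ± 26.4 CPM in B6 Tn, 44.1 ± 11.4 in B6 Tfh, 509 ± 109 in TC Tn and 404 ± 85.5 in TC Tfh. The early response gene Jun was higher in TC by 6.32 ± 0.48 in Tfh and 5.36 ± 0.43 in Tn on the log2 scale. Genes of the mitochondrial genome took 2.26 ± 0.341% in B6 Tn, 2.30 ± 0.141% in B6 Tfh, 1.61 ± 0.0666% in TC Tn and 2.16 ± 0.069% of counts in TC Tfh. Their share separated the strains in Tn only, and in Tfh the libraries overlapped (2.14 to 2.48% in B6 and 2.10 to 2.23% in TC). Proliferation markers (14 genes) summed to 609.8 to 624 CPM in B6 Tn, 871 to 877 in B6 Tfh, 524 to 542 in TC Tn and 717 to 747 in TC Tfh. Their sum went in the opposite direction to the members between cell types, but the listed genes were split. In B6 Tfh 9 were called higher and 4 lower (36.9% and 33.3% of all genes tested), and in TC Tfh 8 and 3 (33.7% and 32.4%). The part of these measures in the strain difference of the members was not tested.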

How the data were processed

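The deposited table holds raw read counts per gene symbol, 1 column for each of 14 libraries. The submitters' processing notes name STAR 2.7, mm10 and DESeq2. Libraries were made with a stranded TruSeq kit from RNeasy-purified RNA, per the labels' protocols. How reads were counted, with which strand setting and annotation, was not given in the sources used here, so counts of overlapping, antisense or near-identical genes, retrocopies among them, are uncertain. Samples were grouped by strain and by the cell type in their titles. For Tn the source field reads Tfh where title and gate say naive, and the protocol speaks of WT and KO where the samples are strains.

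CPM was computed from library totals. Genes passing filterByExpr (count minimum 10) were TMM-scaled. The test was edgeR's quasi-likelihood test (4.0.16, robust, R 4.3.3) on 4 group means with no block, with Benjamini-Hochberg adjustment over 13427 genes and a threshold of 0.05. The fit was tested on simulated data. In the 4 comparisons of groups 30 to 56% of 1.23-fold changes were recovered, and 92 to 96% of 1.62-fold changes. For the interaction these were 14% and 78%. Simulated libraries were not paired by mouse and few genes changed in them, so pairing and scaling were not checked. A floor of 3 counts is 0.149 to 0.198 CPM, counting error only. Lengths and positions came from GENCODE M21, where 90 members matched. Alternatives used DESeq2 1.42.0, limma 3.58.1, other scalings, filters, length and GC splines (5 degrees of freedom), and each library left out.

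Members and lists were chosen with earlier results of these data known. Named members were, in each comparison, the 5 highest and 5 lowest changes at a mean of at least 5 CPM, the 3 most and least abundant per kb, and a fixed set of paralog pairs and known roles. From each other list up to 4 genes with the smallest adjusted p in 2 comparisons were taken, and genes named outside these rules were chosen after their values were seen.

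Libraries with the same number and strain come from 1 spleen, per the labels' protocols, and were paired by mouse in the fits with a block. Their deviations from the group means had correlations of 0.299, 0.114, 0.0395 and 0.203 for B6 mice 1 to 4, and for TC mice 0.209, 0.207 and 0.257. Results of some genes are not reported here, and the figures leave out those among the members.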

Additional observations from a re-analysis of the deposited data

Results flagged for a closer look

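No library stood far from the others of its group in the 86 B6 groups of 4 libraries examined for named members and shares, and the groups of 3 TC libraries were not examined in this way.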

How the results depend on the processing

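Calls and medians of the members between cell types and between strains kept their direction under every alternative except the scaling by the sum of members, which removes the shared shift by construction. Scaled by that sum, members called numbered 35 (Tfh against Tn in B6), 34 (in TC), 8 (TC against B6 in Tfh) and 6 (in Tn), with medians of 0.05, 0.06, 0.01 and 0.02. Library size as the only scaling gave a median of -1.05 for Tfh against Tn in B6. The length and GC offset gave medians of -0.93 (B6) and -0.89 (TC) between cell types and -0.34 between strains in Tfh, and the cause was not tested. Under the interaction 2 members were called in DESeq2 (4.2% of all genes in that fit), with TMM without ribosomal protein genes (2.38%) and with the fixed replicate block (5.48%). Voom with a random replicate block (4.23%) and the length and GC offset (2.6%) also called 2. With no filter on low counts, where more genes are tested, 0 were called (1.57%). Leaving out 1 library gave 81 to 82 and 81 to 83 members called in either direction between cell types in B6 and TC. Between strains it gave 80 to 83 and 83 to 84 in Tfh and Tn, and under the interaction 0 to 2 (1.16 to 2.57% of all genes). Of these, the fits without B6 Tfh mouse 2 or B6 Tn mouse 4 gave 2, and those without B6 Tn mouse 2 or 3, TC Tfh mouse 1 or TC Tn mouse 2 or 4 gave 0. The fixed replicate block by mouse called 82 members lower and 0 higher in Tfh in B6, and 82 lower and 2 higher in TC. Over all genes that fit called 73.6% in B6 and 69.7% in TC, in either direction. With voom and a random block 82 were lower and 0 higher in B6, and 83 and 1 in TC (73.7% and 69.7% of all genes). The share of the members in TC Tfh was 3.01% without mitochondrial, receptor and immunoglobulin genes in the denominator. Of the values of single members under the alternatives, 4964 kept their side of the threshold, 42 passed it, 13 no longer did and 1 lost its call with a change of sign, Rpl22l1 for Tfh against Tn in TC at 0.03 with the length and GC offset. Among the 4964, 116 changed sign without being called in either fit, 109 of them in the interaction. Single members scaled by the sum of members are another quantity and were not counted there. Below about 5 CPM (Rpl24, Rpl39l, Rps4l and Rps3a3) depth limits the precision. Mouse as a fixed block could not be fitted between strains, since strain is nested in mouse.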
